A study of Mus musculus with 2 samples.

Results

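Cytosolic ribosomal protein genes were followed through single αSMA-labeled cells of the mouse periosteum, the tissue layer that covers bone. They were chosen by name, as Rpl or Rps followed by a number with an optional letter or copy number, together with Rplp0, Rplp1, Rplp2 and Rpsa, and without pseudogenes named with -ps or the Rps6k kinases. The rule found 87 genes, 50 of the large and 37 of the small ribosomal subunit, among the 17938 genes listed. The rule used names only and no measured value. In the annotation (GENCODE release M21, mouse genome GRCm38), 85 of the 87 were found, on 19 chromosomes with 15 of them on chromosome 7. Of these, 82 are protein coding and 3, Rps12l1, Rps3a2 and Rps3a3, are processed pseudogenes, singled out here after the annotation had been read. The rule misses ribosomal proteins that carry other names, such as Fau, which is described separately.

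Ribosomal proteins and ribosomal RNA make up the ribosome, which translates mRNA into protein. The proteins are needed in matched amounts, and in mammals many of their mRNAs begin with a tract of pyrimidines, the 5′ TOP element, through which mTOR signaling adjusts their translation. Growing and dividing cells make more ribosomes than quiescent cells. Satellite cells are the stem cells of skeletal muscle, Rgs5 is a gene of pericytes, and Thbs4, Fmod and Tnmd encode matrix and membrane proteins of tendon and fibrous tissue.

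In αSMACreER/Ai9 animals, an αSMA promoter drives a Cre that tamoxifen switches on, so that cells using αSMA at that time, and the cells they give rise to, carry red Tomato. All mice received tamoxifen in 2 doses of 75 mg/kg. Cells were taken after 2 days (mice aged 10.3 weeks), 43 days (14.4 weeks, called 6 weeks) and 96 days (20.1 weeks, called 13 weeks). The first 2 groups carried αSMACreER/Ai9/Col2.3GFP, and the 13-week group carried H2B-GFP/αSMACreER/Ai9 and had doxycycline in the diet for 5 weeks from postnatal day 11, so that age, strain, diet and time cannot be told apart there. Each time point was 1 pool of 2 to 3 female mice sorted 1 cell to a well. The cells of 2 days and 13 weeks shared a plate, and those of 6 weeks were on another, which left plate and time inseparable at 6 weeks.

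Transcripts were counted as unique molecular identifiers (UMIs), which count each captured molecule once. Wells with 200 or more genes were kept as cells, which left 181 of the 2-day, 189 of the 6-week and 133 of the 13-week wells. Their median depth was between 672 and 795 UMIs. In the same order of times there were 4.99, 7.54 and 5.35 reads per UMI, and the median cell had 5.83%, 3.59% and 6.93% of its UMIs on mitochondrial genes. Cells were placed in classes by their UMIs, without claiming a cell type. The Rgs5 class had any UMI of Rgs5 (35, 45 and 38 cells at the 3 times), the tendon class had 3 or more UMIs of Thbs4, Fmod and Tnmd together (70, 68 and 49 cells), and the satellite class had any UMI of Pax7, Myf5, Myod1, Cdh15 or Calcr (29, 22 and 14 cells). There were 24 cells in more than 1 class and 157 in none. No cells were removed as doublets.

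The ribosomal protein genes held 39831 of the 445796 UMIs of the kept cells. Each of the 503 cells had at least 1 of their UMIs. Rplp1, a stalk protein of the large subunit, had the most, with 1629 UMIs (36.5 per 10000 UMIs over all cells). Its gene is at chr9:61913284-61914542 on the minus strand (GRCm38), and that of Rps12, a small subunit protein, is at chr10:23785183-23787275 on the minus strand. Rps12 followed with 1276 and Rps14 with 1053, both proteins of the small subunit. Others among the 12 with the most were Rplp2, the partner of Rplp1 in the stalk, with 906 UMIs, Rps21 with 875, Rpl13a with 806, Rps27 with 801, Rpl41 with 798 and Rpl13 with 782. The 12 genes together held 29.7% of the UMIs of the 87. The median gene had 419 UMIs, and 8 genes had fewer than 30. The reads came from 3′ ends, so that counts do not grow with the length of the transcript. How much of each mRNA was captured was not measured, and the order of genes need not be that of their proteins.

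The order of the genes by level was much alike at the 3 times. Over the 78 genes with 100 or more UMIs, Spearman's rho of the levels was 0.93 between 2 days and 6 weeks, 0.95 between 2 days and 13 weeks and 0.95 between 6 and 13 weeks, as a description over genes that are not independent of each other. Large subunit genes held 53.0% of the ribosomal protein UMIs at 2 days, and 54.4% and 54.1% at the later times. Across cells of one time point, the share of UMIs from the large subunit went with that from the small subunit (rho 0.88, 0.77 and 0.89), where both shares have the same denominator. Spearman's rho between the summed share and the depth of a cell was −0.004, 0.047 and −0.051 over the 181, 189 and 133 cells.

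The starts of several of these genes are shown because the pyrimidine tract is the sequence feature that ribosomal protein mRNAs are best known for. The capitals mark 1 of the 3 letter groups searched on the strand of the gene within 50 bases of the annotated start (RefSeq windows, GRCm38.p6). The first group is CTCTTT, as in Rpl36a, 32 bases past the annotated start. The second is CTTTCC, as in Rps27, 1 base past it. The third is CTTTTC, as in Rps12 and Rpl12, 9 and 2 bases past it. The groups overlap, so that one tract can hold more than 1 of them. Rpl12 had the lowest ratio of 13 weeks to 2 days described below, Rps12 was among the most abundant, and Rpl36a was among the highest ratios in the satellite class. Rpl22l1 and Rps27l are paralogs of Rpl22 and Rps27 and had none of the letter groups in their windows, and their 30 bases are centered on the start. Both still hold runs of pyrimidines, such as ttctcttccc after the start of Rpl22l1, which the search for these groups does not find.
Rps12 (chr10:23787183-23787212, minus strand): gccaccgccggcCTTTTCccctgccgccgc
Rpl12 (chr2:32961702-32961731, plus strand): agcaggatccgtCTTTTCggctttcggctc
Rpl36a (chrX:134585674-134585703, plus strand): gctctagcctctCTCTTTccgagctgctag
Rps27 (chr3:90213630-90213659, minus strand): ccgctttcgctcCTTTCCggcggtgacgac
Rps27l (chr9:66946071-66946100, plus strand): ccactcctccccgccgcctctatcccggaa
Rpl22l1 (chr3:28805493-28805522, plus strand): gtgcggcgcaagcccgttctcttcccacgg
Of the 87 genes, 62 had a start window in the table, and 35 of them (56.5%) held at least 1 of the letter groups on the sense strand, compared with 12.6% of all 27025 genes with a window. On the opposite strand the shares were 8.06% and 11.8%. The letters CCGGAAG, searched on both strands over 300 bases, were in 41.9% of the ribosomal protein genes and 9.93% of all genes. A match is a string of letters, and whether any of these tracts acted in these cells was not measured.

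The share of UMIs from ribosomal protein genes was 10.1% at 2 days (95% interval 9.95 to 10.2), 7.71% at 6 weeks (7.58 to 7.84) and 8.88% at 13 weeks (8.72 to 9.05). It was highest at 2 days and lowest at 6 weeks, and the 3 intervals did not overlap. They are exact binomial intervals and cover counting error only, since each time is 1 pool and no test between times was possible. On the log2 scale, the ratio to 2 days was −0.39 at 6 weeks (−0.42 to −0.36) and −0.18 at 13 weeks (−0.22 to −0.15). The latter was between −0.11, without mitochondrial, Gm26924 and hemoglobin UMIs in the denominator, and −0.30, in cells of 500 to 1500 UMIs. The median share of Gm26924, a gene model read here as a sign of RNA quality, was 4.97%, 3.09% and 7.91% at the 3 times. Dissociation response genes had 93.6, 78.2 and 55.8 UMIs per 10000 in cells without Rgs5, and 97.3, 109 and 82.0 in cells with it. The part of these measures in the differences between times was not tested. Single cells spread far more widely than these differences. Their share ran from 1.79% to 35.5% at 2 days with a median of 8.30%, from 0.333% to 36.9% at 6 weeks with a median of 7.04%, and from 0.576% to 31.8% at 13 weeks with a median of 7.09%. A share over 15% was found in 38, 13 and 20 cells at the 3 times.

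**Figure D1:**
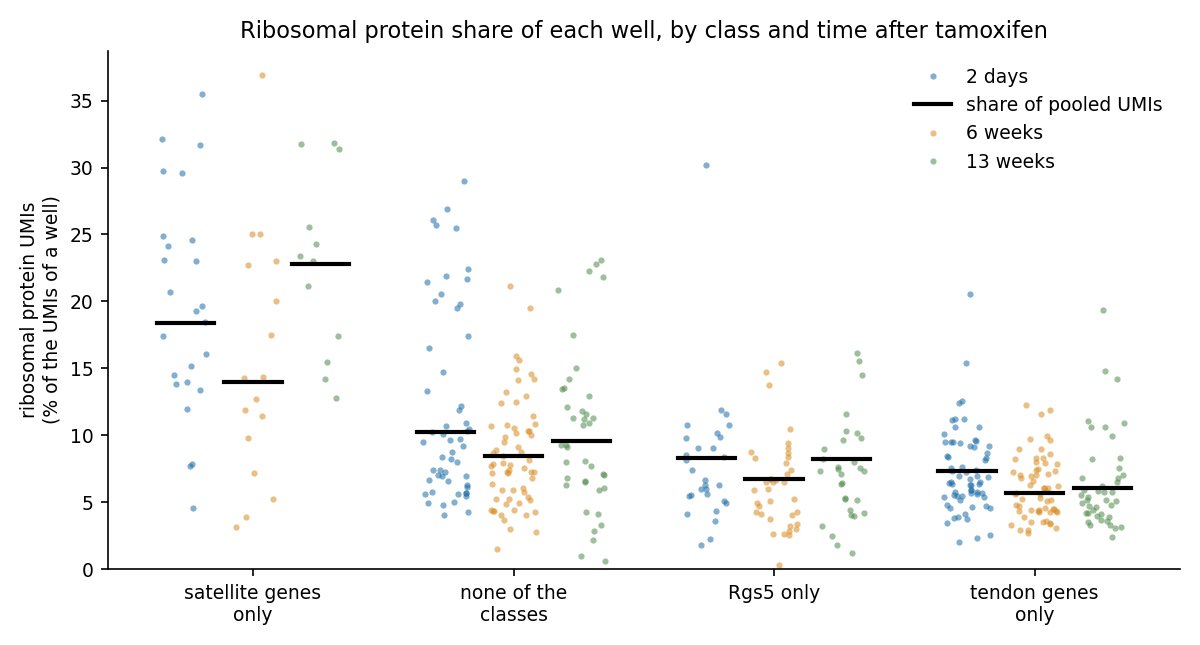
Each point is a cell, placed by its class and its time after tamoxifen, with the share of its UMIs from ribosomal protein genes in percent on the vertical axis, and black bars are the share of the pooled UMIs. Cells with only satellite gene UMIs had pooled shares of 18.4%, 14.0% and 22.8%, above the other 3 sets at each time, and cells with only tendon gene UMIs were lowest at 7.36%, 5.69% and 6.04%.

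When cells in more than 1 class were left out, the 4 remaining sets kept the same order in every pool. Cells with only satellite gene UMIs came first, with 18.4% at 2 days, 14.0% at 6 weeks and 22.8% at 13 weeks. Cells in no class followed with 10.2%, 8.46% and 9.55%, cells with only Rgs5 had 8.32%, 6.75% and 8.19%, and cells with only tendon gene UMIs had 7.36%, 5.69% and 6.04%. In the satellite class the share at 13 weeks was above that at 2 days, with a log2 ratio of 0.12 (0.05 to 0.20), but as a mean over cells the shares were 19.8% and 19.7%, and with classes called after each cell was thinned to 300 UMIs the share at 13 weeks was the lower one (17.6% in 5 cells against 20.9% in 12). In the Rgs5 class the log2 ratio of 13 weeks to 2 days was −0.25 (−0.33 to −0.17) and in the tendon class −0.31 (−0.38 to −0.24). At 6 weeks all 3 classes were below 2 days, by a log2 ratio of −0.53 in the satellite class, −0.35 in the Rgs5 class and −0.39 in the tendon class. Without the cells of the satellite class, the share was 8.59%, 6.99% and 7.82% at the 3 times, and the log2 ratios to 2 days were −0.30 and −0.14.

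Gene by gene, most ribosomal protein genes were lower at 6 weeks than at 2 days. Of the 76 with 100 or more UMIs over both times, 73 had a ratio below 1. The intervals given for single genes are 95% intervals from counting error. Past a 1.5-fold difference, 19 were lower and 0 higher, where 13.0% of all 423 genes with as many UMIs were lower and 8.75% were higher. The median log2 ratio was −0.36, compared with −0.09 for all 423 genes. Rps16 went from 11.8 to 5.93 UMIs per 10000, a log2 ratio of −0.99 (−1.36 to −0.63). Rpsa, which is also known as the laminin receptor precursor, went from 13.7 to 7.14, a log2 ratio of −0.94 (−1.28 to −0.61). Rpl12 went from 16.6 to 8.87, a log2 ratio of −0.90 (−1.21 to −0.61). The 2 most abundant genes were past 1.5-fold as well, Rplp1 with 45.7 and 27.5 (log2 ratio −0.73) and Rps12 with 35.8 and 22.1 (−0.69). Only Rpl26, Rpl37 and Rps23 had ratios above 1 at 6 weeks, with log2 ratios of 0.18, 0.08 and 0.04 and intervals that included 0.

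At 13 weeks the genes had moved less. Of 75 with 100 or more UMIs at 2 days and 13 weeks, 57 had a ratio below 1. A 1.5-fold lower level was found for 1 gene and a higher one for 0, where 16.6% of all 355 genes were lower and 6.20% higher. The median log2 ratio was −0.19, and that of all 355 genes was −0.14. The gene past 1.5-fold was Rpl12, an rRNA-binding protein near the stalk, which went from 16.6 to 10.6 UMIs per 10000, a log2 ratio of −0.64 (−0.96 to −0.34). Rpl10 had 9.29 at 2 days and 7.08 and 6.28 later, and Rpl3 had 7.13, 6.63 and 4.84, both with a log2 ratio of −0.56 at 13 weeks. The highest ratios were those of Rpl7a (5.78 and 6.70), Rpl18 (8.002 and 9.25) and Rpl35a (7.89 and 8.91), whose intervals included a ratio of 1. Rps27 stayed within a narrow range, with 17.9, 17.9 and 18.3.

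**Figure D2:**
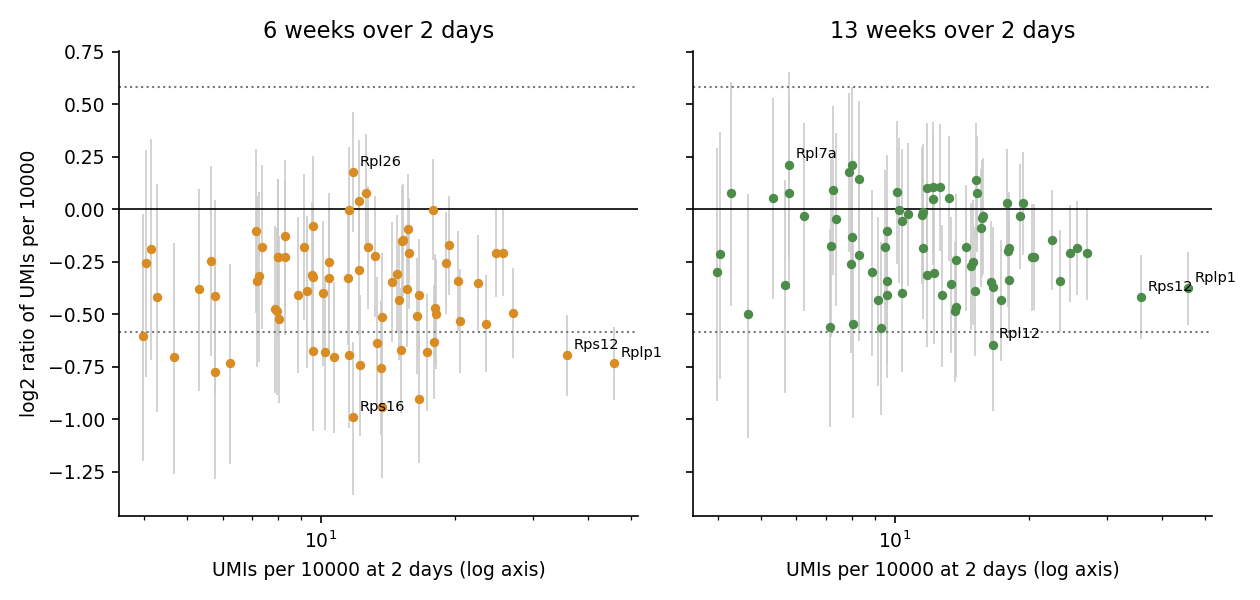
Each point is a ribosomal protein gene with 100 or more UMIs over the 2 times compared, with its level at 2 days (UMIs per 10000, log axis) against the log2 ratio of 6 weeks (left) or 13 weeks (right) to 2 days, gray bars are 95% counting intervals and dotted lines mark 1.5-fold. At 6 weeks 19 genes lie below the lower dotted line, and at 13 weeks only Rpl12 does.

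The largest difference in ribosomal protein share was that of the satellite class. At 2 days the share was 18.6% in the 29 cells with a UMI of a satellite gene and 8.59% in the other cells. At 6 weeks it was 12.9% and 6.99%, and at 13 weeks 20.3% and 7.82%. The groups did not overlap, and the difference was 9.46 ± 3.31 percentage points (SD, n = 3 pools), with the smallest at 6 weeks. The counts behind the share were as follows. The mean number of ribosomal protein UMIs per cell was 165 against 82.3 at 2 days, 111 against 57.7 at 6 weeks and 146 against 70.8 at 13 weeks, while all other UMIs were 722 against 875, 752 against 767 and 574 against 835. Over 15% were 20 of 29, 8 of 22 and 10 of 14 cells of the satellite class, and 18 of 152, 5 of 167 and 10 of 119 of the others. Cells with Pax7, the transcription factor of satellite cells, had 18.8% (14 cells), 11.2% (13) and 18.3% (8), and cells with Cdh15, a cadherin of the muscle lineage, had 18.1% (16), 13.8% (4) and 22.6% (4).

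**Figure D3:**
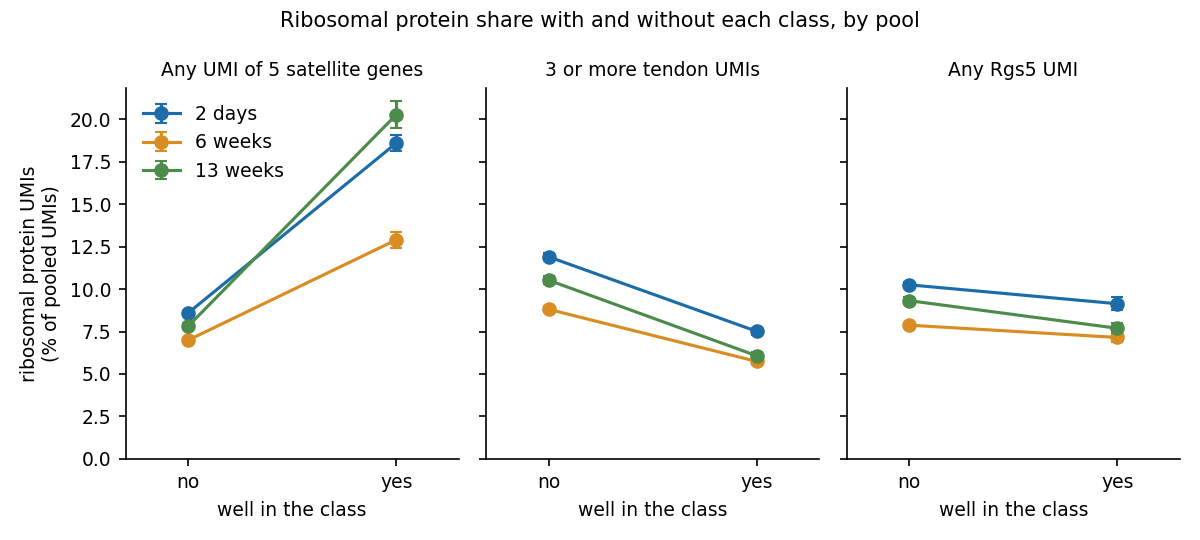
Each line joins the ribosomal protein share of pooled UMIs (percent) of cells outside and inside a class, for 1 pool of mice, with exact 95% binomial intervals. The share was higher inside the satellite class in all 3 pools, and lower inside the tendon and Rgs5 classes in all 3, though on read counts, not plotted, the Rgs5 class was higher at 2 days.

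Most of the ribosomal protein genes tested were higher in the satellite class. Of 79 genes with 30 or more UMIs in the sums compared (the other 8 were not tested), 50 were higher and 0 lower (adjusted p under 0.05, edgeR with the pool as a block). Among all 2483 genes tested, 4.03% were higher and 4.19% lower. All 79 log2 ratios were above 0, from 0.32 to 1.90 with a median of 1.10, where the median of all genes was −0.26. The level was higher in the satellite class for 78 of the 79 at 2 days, 75 at 6 weeks and 78 at 13 weeks. Both subunits took part, with 25 of 46 large and 25 of 33 small subunit genes called. The count depended on the pools. Without the 2-day pool or without the 13-week pool it was 0, with a median log2 ratio of 1.09 and 0.99. Without the 6-week pool it was 60, beside 115 of all 1490 genes. The loss was not particular to these genes, since 5 of all 1453 genes were higher without the 2-day pool and 0 of 1770 without the 13-week pool. DESeq2 called 22, beside 44 of all 2483 genes.

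Rplp1 had 68.1 UMIs per 10000 in the satellite class and 41.8 outside it at 2 days, 47.4 and 24.8 at 6 weeks, and 79.4 and 31.1 at 13 weeks, a log2 ratio of 1.00 ± 0.30 (SE, adjusted p = 0.018). Rps12 had 69.2 and 29.9, 39.5 and 19.7, and 67.5 and 23.0, a log2 ratio of 1.26 ± 0.31 (adjusted p = 0.0015). In both genes all 3 values in the satellite class lay above all 3 outside it, and the lowest was that of 6 weeks. Rpl22l1, a paralog of Rpl22 with few UMIs, had the highest ratio, with 7.002 and 2.06, 6.32 and 1.45, and 6.94 and 1.95, a log2 ratio of 1.90 ± 0.46 (adjusted p = 0.0014). Rpl12 followed with 40.1 and 12.4, 17.4 and 7.69, and 32.7 and 8.54, a log2 ratio of 1.60 ± 0.33 (adjusted p = 0.00011). Rpl36a had 19.8 and 6.94, 14.2 and 5.66, and 22.8 and 5.75, also a log2 ratio of 1.60. At the other end, Rpl27 had 7.002 and 6.12, 3.69 and 3.77, and 9.92 and 5.75, a log2 ratio of 0.32 ± 0.40 that did not pass (adjusted p = 0.76). Rps27l (0.46) and Rpl27a (0.46) did not pass either. Of the 12 most abundant genes, 11 were higher, and Rpl41, which encodes the smallest ribosomal protein, was at a log2 ratio of 0.66 (adjusted p = 0.23).

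Other genes moved with the satellite class. Those of the dissociation response, which cells switch on during tissue digestion, had 205 UMIs per 10000 against 74.6 at 2 days, 223 against 66.4 at 6 weeks and 132 against 56.4 at 13 weeks, and 8 of the 12 tested were higher. Fibroblast genes were lower, with 53.7 against 234, 116 against 205 and 34.7 against 126 (4 of 8 lower). Hemoglobin genes had 110 against 1.44 UMIs per 10000 at 2 days, but 0.53 against 33.1 and 3.97 against 43.0 later. The 2-day value was not spread over the class, with 230 in cells with Pax7, 185 in cells with Cdh15 and 0 in cells with Myf5, Myod1 or Calcr. The median mitochondrial share was 6.77% against 5.71%, 4.20% against 3.57% and 8.58% against 6.93%. Median depth was 845 against 784 UMIs, 700 against 658, and 728 against 726. Skeletal muscle genes were lower (4 of 11), as were tendon genes (5 of 6) and osteoblast genes (2 of 4). Perivascular genes had 10.9 UMIs per 10000 against 25.3, 6.32 against 35.9 and 24.8 against 44.9, and 2 of 9, Rgs5 and Pdgfrb, were lower. Of the satellite gene list, Chodl and Megf10 did not define the class, and the 1 of them that could be tested did not pass (log2 ratio 0.84). By edgeR, Chodl was higher in the tendon class (2.26, adjusted p = 0.00033) and lower in the Rgs5 class (−1.79, adjusted p = 0.00019). None of the genes of immune or Schwann cells had enough UMIs to be tested. The part of any of these in the ribosomal protein share was not tested.

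Ribosomal protein genes were lower in the tendon class. The share was 7.51% in these cells against 11.9% in the others at 2 days, 5.74% against 8.81% at 6 weeks, and 6.07% against 10.5% at 13 weeks. The groups did not overlap, and the difference was −3.97 ± 0.78 percentage points (SD, n = 3 pools). Of 79 genes tested, 28 were lower and 0 higher, where 7.09% of all 2481 genes were lower and 5.40% higher. The log2 ratio was below 0 for 78 of the 79, Rps3a3 being the exception with few UMIs, with a median of −0.69 compared with −0.13 for all genes. Of the 28, 15 were of the large and 13 of the small subunit, and 24 were also among those higher in the satellite class. Among these 24 were Rpl10a, Rpl13, Rpl18, Rpl23, Rpl32, Rpl36a, Rpl37, Rpl39, Rpl6, Rplp2, Rps12, Rps14, Rps18, Rps19, Rps20, Rps23, Rps24, Rps26, Rps27, Rps3 and Rps4x. The 2 comparisons share cells, since most cells of the satellite class are outside the tendon class. Without the satellite class, the difference was −2.47 points and 3 of 79 were lower, beside 124 of all 2134 genes tested. Without the 2-day pool 8 of 78 were lower, beside 110 of all 1451 genes. Without the 6-week pool 9 were lower, beside 93 of 1488, and without the 13-week pool 4, beside 68 of 1768. DESeq2 called 0 lower, beside 37 of all 2481 genes. The median log2 ratio was −0.61 with DESeq2 and −0.69, −0.70 and −0.61 without the 3 pools in turn, and −0.44 without the satellite class.

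Rps20 had the lowest ratio, with 11.8 UMIs per 10000 in the tendon class and 22.5 outside it at 2 days, 7.28 and 15.9 at 6 weeks, and 7.13 and 18.6 at 13 weeks, a log2 ratio of −1.10 ± 0.22 (SE, adjusted p = 0.0029). Rpl10a (−1.10) and Rpl6 (−1.04) were next. Rps12 had 23.3 and 44.6, 14.7 and 26.3, and 14.0 and 34.3, a log2 ratio of −0.99 ± 0.21 (adjusted p = 0.0042). Rplp1, the most abundant gene, had 40.0 and 49.7, 22.6 and 30.3, and 25.1 and 41.2, and did not pass (log2 ratio −0.45, adjusted p = 0.17). The ratios nearest to 0 among genes with 100 or more UMIs were those of Rpl10 (−0.22) and Rpl27a (−0.24), neither of which passed. Dissociation response genes were also lower in the tendon class (67.5 against 113 UMIs per 10000, 43.1 against 109 and 36.8 against 78.1, with 8 of 12 lower), and the 4 hemoglobin genes were lower. So were all 11 skeletal muscle genes tested and 6 of 8 fibroblast genes, with Dcn higher. Endothelial and perivascular marker genes were lower in the tendon class (6 of 6 and 6 of 9 tested), at 0.28 against 5.76, 0.53 against 14.9 and 2.76 against 24.1 UMIs per 10000 for the endothelial list. Their part was not tested.

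The Rgs5 class differed least. The share was 9.14% with an Rgs5 UMI and 10.3% without at 2 days, 7.15% and 7.88% at 6 weeks, and 7.69% and 9.32% at 13 weeks, a difference of −1.16 ± 0.45 percentage points (SD, n = 3 pools). The values with and without Rgs5 overlapped between pools. Of 79 genes tested, 0 were higher and 0 lower by edgeR, and DESeq2 called 0. Among all 2483 genes, 4.47% were higher and 4.99% lower. The median log2 ratio was −0.21, and that of all genes was −0.07. Among the lower ratios were those of Rpl23 (−0.65, adjusted p = 0.13 by edgeR), Rpl12 (−0.61), Rpsa (−0.61) and Rpl10 (−0.61). The highest ratios were those of Rps27l (0.47), Rps20 (0.30) and Rpl19 (0.26), and none passed. The size of the difference in share depended on the cells and their weights. It was −2.42 points as a mean over cells, −2.15 with 2 or more Rgs5 UMIs (4 genes lower, beside 172 of all 2483), −2.03 without the deepest 5% of cells and −1.95 in cells of 500 to 1500 UMIs. Without the cells of the satellite class the difference was −0.24 points, below the spread between pools, and at 13 weeks it had the opposite sign (7.92% against 7.78%). On read counts the 2-day pool had the opposite sign (7.95% with Rgs5 against 7.72% without). Other genes and measures moved with this class. Endothelial marker genes had 20.9, 34.6 and 43.4 UMIs per 10000 against 0.61, 2.16 and 6.16 outside it (6 of 6 tested higher), and 6 of 8 perivascular genes were higher. Tendon genes (6 of 6), skeletal muscle genes (9 of 11), fibroblast genes (5 of 8) and osteoblast genes (2 of 4) were lower, and of the 12 dissociation genes Jun and Zfp36 were higher. Hemoglobin genes had 2.05 UMIs per 10000 against 20.3 at 2 days, 122 against 0.67 at 6 weeks and 2.83 against 53.3 at 13 weeks, and 0 of 4 were called. Median depth was 588 UMIs against 844 at 2 days, 621 against 691 at 6 weeks and 562.5 against 762 at 13 weeks. At 2 days the median mitochondrial share was 7.36% against 5.16% and that of Gm26924 was 7.85% against 4.62%. Without mitochondrial, Gm26924 and hemoglobin UMIs in the denominator, the difference at 2 days was −0.47 points in place of −1.11, at 13 weeks it was −1.90 in place of −1.63, and the mean was −0.98. The part of these genes and measures in the result was not tested. Within the class, cells with an endothelial UMI had a ribosomal protein share of 9.33%, 7.04% and 7.44%, and those without 8.99%, 7.41% and 8.13%.

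**Figure D4:**
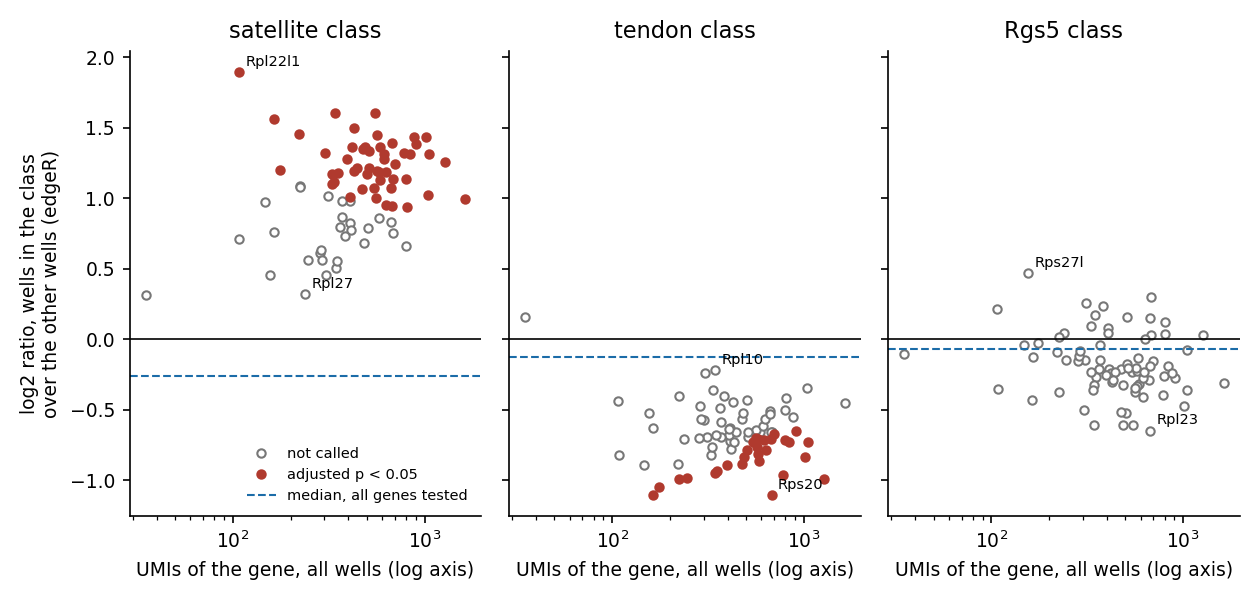
Each point is 1 of the 79 ribosomal protein genes tested, with its UMIs over all cells (log axis) against the log2 ratio of cells in the class to the other cells, filled where the adjusted p was under 0.05 by edgeR, and the dashed line is the median of all genes tested. All 79 lie above 0 in the satellite class, 78 lie below 0 in the tendon class, and in the Rgs5 class none was called.

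No ribosomal protein gene passed a test of its proportion among the others. When the summed UMIs were scaled to those of the ribosomal protein genes themselves, so that only their proportions remained, 0 of 79 were called in the satellite, the tendon or the Rgs5 class by edgeR. Of all genes, this fit called 10 higher and 704 lower of 2483 in the satellite class. In the tendon class it called 370 and 76 of 2481, and in the Rgs5 class 131 and 86 of 2483. The lowest adjusted p was 0.11, 0.16 and 0.27 in the 3 classes. The relative log2 ratios in the satellite class ran from −0.81 (Rpl27) to 0.78 (Rpl22l1), with standard errors of the size given above. Differences in proportion can therefore not be excluded, and what size the test could detect was not measured. Large subunit genes held 51.4%, 53.8% and 52.4% of ribosomal protein UMIs in the satellite class and 53.7%, 54.6% and 54.5% outside it.

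The paralogs had fewer UMIs than their partners. Rpl3l, the striated muscle form of Rpl3, had 6 UMIs compared with 283 for Rpl3. Rpl7l1 had 15 compared with 224 for Rpl7, and Rpl39l, the testis form of Rpl39, had 18 compared with 544. Rpl22l1 had 108 and Rpl22 had 680, and in the satellite class Rpl22 was at a log2 ratio of 0.75 ± 0.33, which did not pass (adjusted p = 0.16), whereas Rpl22l1 was higher. The difference between the 2 genes was not tested. Rps27l had 156 UMIs and Rps27 had 801. These were the only 2 genes whose level was higher with Rgs5 in all 3 pools, Rps27l with 5.75 against 3.88, 3.82 against 3.58 and 3.46 against 1.98 UMIs per 10000, and Rps27 with 18.1 against 17.8, 19.4 against 17.4 and 19.8 against 17.7, and neither passed (adjusted p = 0.50 and 0.86). Rps4x had 476 UMIs and was higher in the satellite class (log2 ratio 1.35) and lower in the tendon class (−0.88). Rpl36al, outside the name rule, had 91 UMIs and log2 ratios of −0.54 in the satellite and −0.72 in the tendon class, neither past the test.

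Fau, whose product is cut to give a small subunit protein, had 13.2 UMIs per 10000 in the satellite class against 8.04 at 2 days, 6.32 against 6.46 at 6 weeks and 17.9 against 6.22 at 13 weeks (log2 ratio 0.75, adjusted p = 0.23). Gnb2l1, the scaffold protein Rack1 of the small subunit, was higher in the satellite class, with 21.8 against 7.01, 8.95 against 7.69, and 18.9 against 7.61 (1.09, adjusted p = 0.033). Of the 20 genes tested of a list of initiation, elongation and translation-associated factors, which includes both of these, 2 were higher and 0 lower in the satellite class, with a median log2 ratio of 0.58. These were Gnb2l1 and Tpt1, itself known for a pyrimidine tract, which had 51.7 against 26.3, 32.7 against 19.6, and 69.4 against 24.97 (1.06, adjusted p = 0.012). In the tendon class Tpt1 (−0.71, adjusted p = 0.027) and Naca, which binds nascent chains (−0.98, adjusted p = 0.046), were lower, 2 of 20 where 7.09% of all genes were, and in the Rgs5 class 0 of 20 were called. Eef1a1, the main elongation factor, had log2 ratios of 0.58, −0.58 and −0.37 in the satellite, tendon and Rgs5 classes and did not pass in any.

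Of the 3 genes tested that host small nucleolar RNAs, 2 were higher in the satellite class, Gas5 (1.21, adjusted p = 0.0095) and Snhg12 (2.44, adjusted p = 0.014), and 0 were called in the other classes. Among all genes, 4.03% were higher in the satellite class. The calls of the lists in that class, those of Tpt1, Gnb2l1 and the dissociation genes included, were lost without the 13-week pool, where no gene of 1770 was called. Gas5 had 18.3 against 8.73, 12.6 against 7.77, and 30.8 against 8.45 UMIs per 10000. Snhg12 rested on 32 UMIs in all and had 0 in the satellite class at 6 weeks. Of the 8 tested genes of ribosome biogenesis, Nop58, a core protein of box C/D particles, was higher in the satellite class (1.84, adjusted p = 0.048), and 0 were called in the tendon or Rgs5 class. Of 19 Mrpl and Mrps genes tested, 0 were called in the satellite class, where 5 of the 19 ratios were above 0 and the median log2 ratio was −0.70, and 0 were called in the Rgs5 class. In the tendon class Mrps6 was higher (2.49, adjusted p = 0.00038).

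Many of these genes have near-identical copies, so that the count of a single gene is uncertain. Of 85 transcripts compared over windows of 50 bases in their last 300 bases, 66 shared at least 1 window with a transcript of another gene, with a median of 62.5% of windows shared, and 7 shared 90% or more. Rpl10, Rpl12, Rpl36a and Rps27, described above, are among these 7. Genes named with -ps, 175 of them, had 2597 UMIs, which is 6.52% of the ribosomal protein UMIs. Of the 28 such genes tested, all 28 had log2 ratios above 0 in the satellite class with a median of 1.14, and 27 of 28 were below 0 in the tendon class, with 2 higher and 0 lower by the test, where 4.03% of all genes were higher in the satellite class and 7.09% lower in the tendon class. The share of windows shared did not go with the UMIs of a gene (rho −0.09 over 85 genes).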

How the data were processed

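Single cells sorted from periosteum were measured with a plate form of Drop-seq. The authors aligned reads with STAR to the mouse genome and counted UMIs per gene and well. Per the submitters' processing notes, bcl2fastq 2.18.0.12, Picard 2.9.3, STAR 2.5.4a and GRCm38 were used. The deposited values are counts, UMI counts and read counts, not normalized.

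Wells with 200 or more genes were kept, and 168 wells that the labels put in no time point were not used. The 384 well barcodes recur on both plates, and the pools that shared a plate shared 0. Depth was 171209, 156763 and 117824 UMIs at 2 days, 6 weeks and 13 weeks. Shares have exact binomial intervals at 95%, for counting error only. Times were compared without a test, since each was 1 pool, by a 1.5-fold rule on genes with 100 or more UMIs. For each class, UMIs were summed by class and pool (6 sums), and genes with 30 or more UMIs, without those that define the class, were tested with edgeR 4.0.16 in R 4.3.3 (quasi-likelihood, pool as a block, total UMIs as library size, two-sided, Benjamini-Hochberg over all genes tested). Both classes of a pool came from the same mice, which gives the pairing. DESeq2 1.42.0 was an alternative. The scripts were tested on simulated data. Other alternatives changed the gene and depth filters, scaling, denominator, class cutoffs, read counts for UMIs, and left out each pool. Summed shares were given no p-value.

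Genes named were the 12 with the most UMIs, the 3 highest and 3 lowest ratios of each comparison among genes with 100 or more UMIs, genes called in opposite directions in 2 classes, listed paralogs, and genes called on the comparison lists. The genes, classes and lists were chosen with earlier results of these data known. Positions are from GENCODE M21 and start windows from RefSeq. Some genes that the naming rule picks are not reported here.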

Additional observations from a re-analysis of the deposited data

Results flagged for a closer look

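The ribosomal protein share at 13 weeks stood on opposite sides of that at 2 days in cells with and without a satellite gene UMI. The log2 ratio of 13 weeks to 2 days was 0.12 in the satellite class, with shares of 20.3% and 18.6%, and −0.14 in the other cells, with shares of 7.82% and 8.59%. Each is 1 pool against 1 pool, and the difference between the 2 ratios was not tested. With cells of more than 1 class left out, the satellite shares were 22.8% in 12 cells and 18.4% in 25 cells. As a mean over cells they were 19.8% and 19.7%, and with classes called after thinning to 300 UMIs the order turned, with 17.6% in 5 cells at 13 weeks and 20.9% in 12 cells at 2 days.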

How the results depend on the processing

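The higher share in the satellite class stayed between 7.83 and 11.2 percentage points under all 14 alternatives. The number of genes higher there, 50 beside 100 of all genes, was 31 (of 65) with TMM factors, 31 (of 72) with any UMI, 22 (of 44) with DESeq2, 22 (of 53) without the pool as a block (no replicate block), 24 (of 41) with classes called at 300 UMIs, 22 (of 53) with 2 or more satellite UMIs, 5 (of 13) on read counts, and 0 to 60 when a pool was left out. The number lower in the tendon class, 28 beside 176 of all genes, was 13 (of 148) with TMM factors, 12 (of 174) with any UMI, 0 (of 37) with DESeq2, 48 (of 120) at 100 or more UMIs, 1 (of 95) without the block, 17 (of 148) with 300 or more genes per cell, 1 (of 85) on read counts, and 4 to 9 when a pool was left out. The number lower in the Rgs5 class, 0 beside 124 of all genes, was 1 (of 91) at 100 or more UMIs, 4 (of 172) with 2 or more Rgs5 UMIs and 0 to 1 when a pool was left out, and without the block it stayed 0. Here "of" gives all genes called in that direction, among 2481 or 2483 tested except with any UMI (16145 and 16147), at 100 or more UMIs (594 and 596), on reads (9005 and 9007), with 300 or more genes (2249) and at 300 UMIs (2442).

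The difference in share of the Rgs5 class, −1.16 points, was −0.34 on reads (0.23 in the 2-day pool), −2.42 as a mean over cells, −1.95 in cells of 500 to 1500 UMIs, −2.03 without the deepest 5% of cells and −2.15 with 2 or more Rgs5 UMIs. That of the tendon class, −3.97, was −3.13 on reads. The log2 ratio of 6 weeks to 2 days, −0.39, was −0.33 with 300 or more genes, −0.56 on reads, −0.45 without mitochondrial, Gm26924 and hemoglobin UMIs in the denominator, −0.43 as a mean over cells and −0.44 in cells of 500 to 1500 UMIs. That of 13 weeks, −0.18, was −0.14, −0.11, −0.23 and −0.30 under the same settings without reads, and −0.27 without the deepest 5%. Past 1.5-fold, the 19 genes lower at 6 weeks were 40 on reads, where 23.3% of all genes were lower, and 0 at a fold of 2, and the 0 higher were 1 on reads, where 35.4% were higher. The 1 lower at 13 weeks was 2 with 100 or more genes per cell, 2 with 300 or more, 2 at 50 or more UMIs, 5 on reads (28.4% of all genes) and 0 at a fold of 2.

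Some alternatives were chosen after seeing the data. Scaled to ribosomal protein UMIs, 0 ribosomal protein genes were called in the satellite and 0 in the tendon class, where only proportions are left. Of all genes, 10 were higher and 704 lower in the satellite class, and 370 and 76 in the tendon class. Without satellite class cells, the log2 ratios were −0.30 and −0.14, the Rgs5 difference −0.24, the tendon difference −2.47, and 3 genes were lower in the tendon class. For the other changes the cause was not tested. The satellite class had 14 to 29 cells a pool, which limits its values.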
